A study of Mus musculus with 6 samples.

Results

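Wild type mouse cerebral cortex was described from the 3 arrays labelled wild type, out of 6 arrays in the series. The members were taken from the sample descriptions alone, which number them wild type replicate 1, 2 and 3, and every probe set that is not a control was ranked by its mean signal over these arrays and by its spread between them. The 3 remaining arrays, of cortex labelled Egr1/Egr3 double knockout, were not used in any value below. The labels state total RNA of cerebral cortex and the series title an Affymetrix mouse array, and they give no strain, sex, age, treatment or dissection. Nor do they say whether the 3 arrays came from separate animals, so the spread between them may be technical. No group was compared with another and no test was run. A bulk sample mixes all cells of the tissue, and fewer cells of a type cannot be told apart from less RNA per cell.

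The cerebral cortex is a layered sheet of excitatory projection neurons and inhibitory interneurons, supported by astrocytes, by oligodendrocytes that wrap axons in myelin, by microglia and by blood vessels. Its excitatory neurons of the upper layers connect cortical areas, while those of the deep layers project to the brain stem, thalamus and spinal cord. The cortex lies under the meninges and above the hippocampus and the lateral ventricle, where the choroid plexus secretes cerebrospinal fluid and ependymal cells line the wall, so a dissection can carry some of these neighbours along.

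The values are linear signals that had been scaled by the authors, since the mean of each array without its 2% highest and 2% lowest probe sets was 150.0. Median signals were 39.5, 37.2 and 36.3 on replicates 1, 2 and 3, and signals are given in that order throughout. Across probe sets, log2 signals of any pair of arrays correlated with Pearson's r of 0.980 to 0.981, and probe sets are not independent replicates. Replicate 3 stood apart from the other arrays in genes of the choroid plexus, described below, and the arrays did not have the same range. Their highest signals were 6868, 9179 and 12292, and the median spiked-in control read 326, 680.2 and 951. Of the 300 brightest genes, 249 were highest on replicate 3 and 198 were lowest on replicate 1. After quantile normalization the highest signal of these genes lay on replicate 1 for 114, on replicate 2 for 118 and on replicate 3 for 68. The order of the arrays in bright genes thus changed with the scaling, and values after quantile normalization are given below where a direction changes with it. The 3' to 5' signal ratio of the Gapdh controls, a sign of RNA quality, was 0.842, 0.806 and 0.873, and that of the Actb controls was 1.58, 1.67 and 1.95. The 3 Y-linked genes measured were above background on all 3 arrays, with 383, 384 and 441 for Eif2s3y, a translation initiation factor subunit encoded on the Y chromosome. Xist, the RNA that coats an inactive X chromosome, read 42.5, 23.9 and 22.5.

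Genes of the olfactory and vomeronasal receptor families, which sensory neurons of the nose use, served as a measure of background. Their 78 probe sets, for 70 genes, had a median mean signal of 4.74, and the 95th percentile of 18.2 was taken as the background threshold. By this measure 28468 of 45037 probe sets (63.2%) were above background. Each gene was represented by its brightest probe set among those with 1 gene symbol, and 12921 of 18193 genes (71.0%) were above background. Probe sets differ in how strongly they hybridise, so the rank of a signal is not the rank of an RNA amount, and signals of different genes are not compared as levels.

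**Figure D1:**
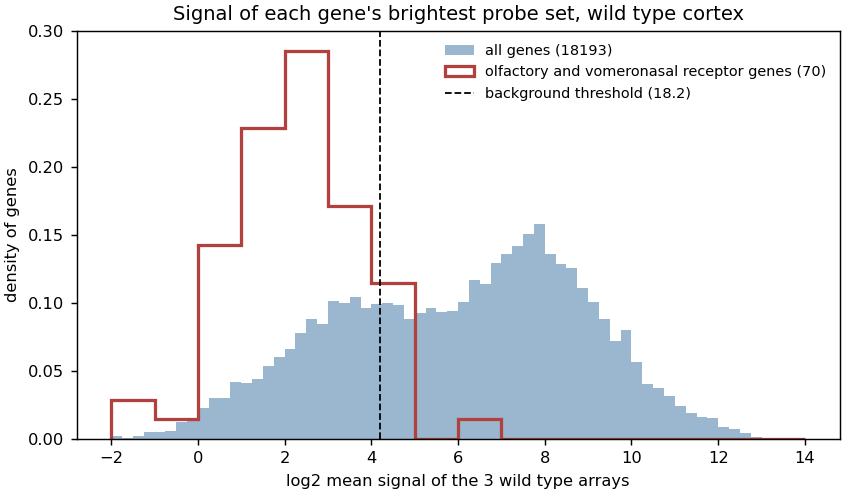
Density of genes (y axis) against the log2 mean signal of the 3 wild type arrays (x axis), for all 18193 genes by their brightest probe set (filled) and for the 70 olfactory and vomeronasal receptor genes (outline). The dashed line is the background threshold of 18.2 signal units, and most receptor genes lie below it while 71.0% of all genes lie above it.

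Many of the 30 genes with the highest mean signal served energy supply, protein synthesis, the cytoskeleton, myelin or the synapse. ND5, a subunit of respiratory complex I encoded by the mitochondrial genome, read 6770.1, 9179 and 12292. Among nuclear genes of respiration, Uqcrb, a subunit of complex III, read 6250.1, 6215 and 7882 and Cox6a1, a subunit of complex IV, read 5150.5, 5812 and 7413. Atp1b1, a subunit of the sodium pump that restores the membrane potential, read 5662, 7464 and 9114. With the deposited scaling, replicate 3 was the highest array for each of the 30, and replicate 1 or 2 the lowest, as in the plot of the brightest genes. Protein synthesis was represented by the ribosomal proteins Rps29, Rpl38 and Rpl41 and by the elongation factor Eef1a1, at 6211, 6259.9 and 8581. Cytoskeletal genes were Actb, Tuba1a, the actin-binding Tmsb4x, Tmsb10 and Pfn2, the microtubule-destabilising Stmn1 and Stmn3, and Dynll1, a dynein light chain. Gpm6a, a membrane glycoprotein of neuronal processes, read 6322, 7251 and 9389.9, and Mbp, a main protein of compact myelin, read 6152, 7445 and 9228. Snap25, a SNARE protein that drives fusion of synaptic vesicles, read 5044, 6639 and 7128, and Cpe, which processes peptide hormones, read 5268, 6241 and 8691. Hspa8, a constitutive heat shock protein that also uncoats clathrin vesicles, read 4562, 6622 and 7995. The others were Tpt1, Ywhab, Fth1, Ndrg4, Selenow, Camk2n1, Pebp1, Ppp2r1a and Nsmf. Among the 100 brightest probe sets, 71 had 1 gene symbol, for 56 genes, 19 had several and 10 had none, so this ranking leaves out part of the brightest signal.

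**Figure D2:**
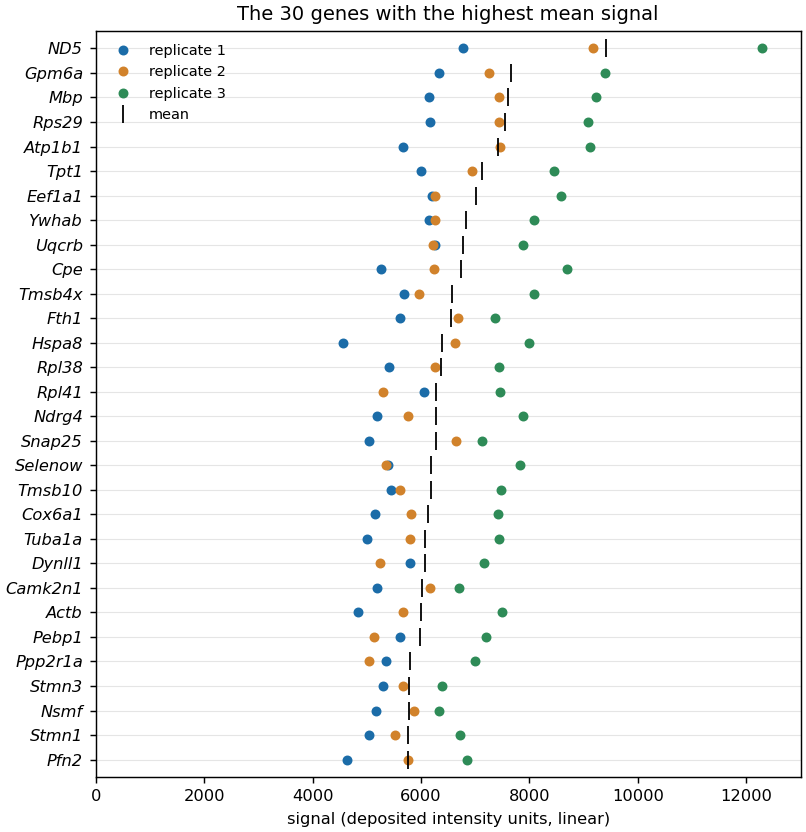
Signal in deposited linear units (x axis) of the 30 genes with the highest mean signal (y axis, brightest at the top), with a point for each wild type array and a bar for the mean. Replicate 3 is the rightmost point for each gene, and ND5 spans 6770 to 12292.

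Counts by family were read against the 300 brightest genes, which are 1.65% of all genes measured. All 6 of the 6 measured 14-3-3 proteins, adaptors that bind phosphorylated proteins and are abundant in brain, were among them. So were 25 of 48 cytosolic ribosomal proteins (52.1%), 31 of 101 subunits of oxidative phosphorylation (30.7%), 9 of 13 glycolytic genes (69.2%) and 5 of 15 tubulins (33.3%). Of 25 cytoskeletal and axonal transport genes, a list that shares tubulins with the last count, 19 were in the 300 (76%), as were 11 of 17 pan-neuronal markers (64.7%). Among the latter, Syt1, the calcium sensor of vesicle release, read 4602, 5093 and 5908, Thy1, a surface glycoprotein of projection neurons, read 4491, 3553 and 5127, and Vsnl1, a neuronal calcium sensor, read 3315, 4108 and 3497. In glycolysis, Aldoa read 5123, 5279 and 6755, Aldoc, the isoform of astrocytes, read 4224, 4609 and 5606, and Tpi1 read 3593, 3700.0 and 4218. The median SD between arrays over the glycolytic list was 0.11 log2 units against 0.17 over all genes above background. Over the 3230 brightest genes, which include the whole glycolytic list, it was 0.15. The value of the glycolytic list was 0.060 after quantile normalization and 0.045 without replicate 3.

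Promoter sequence was looked at in the RefSeq table of assembly GRCm38.p6, which holds 250 bases before and 50 after each annotated start and matched 10401 of the 12921 genes above background. The motifs searched were TATAAA lying 40 to 20 bases before the start on the gene's strand, the core binding site of the TATA-binding protein, TGACGTCA on either strand, the palindromic cyclic AMP response element, and GGGCGG on either strand, the GC box. Over all 32851 promoters 1.99% held the first, 1.79% the second and 35.7% the third. A gene counted if any of its starts held the motif. Among genes above background 1.55% held TATAAA, 3.51% TGACGTCA and 68.1% GGGCGG, against 6.1%, 1.44% and 29.7% of the 3966 matched genes not above background. Among the 240 matched genes of the 300 brightest, 21 held TGACGTCA (8.75%), 2.5% held TATAAA and 70% held GGGCGG. Matched genes with an SD over 0.5 log2 units between arrays, described further on, numbered 420, and 1.9% of them held TGACGTCA, 2.38% TATAAA and 60.5% GGGCGG. Genes differ in how many starts are annotated, with means of 1.29 above background and 1.15 otherwise, and a match is only a match of letters.

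The 80 bases before the start, 5' to 3' on the gene's strand, are shown for 3 of the 21 bright genes with the cyclic AMP response element, chosen after their values were seen for their roles in axon and vesicle, with TGACGTCA in capitals. Tubb2a, a neuronal beta tubulin with signals of 3104, 3184 and 4091, starts after chr13:34078009-34078088 on the minus strand. Kif5c, a motor of axonal transport with 2928, 3815 and 4281, starts after chr2:49619206-49619285 on the plus strand. Chgb, a protein of dense-core vesicles with 2758, 3572 and 2909, starts after chr2:132781562-132781641 on the plus strand.
Tubb2a: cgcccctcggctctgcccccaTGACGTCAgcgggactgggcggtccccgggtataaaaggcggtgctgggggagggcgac
Kif5c: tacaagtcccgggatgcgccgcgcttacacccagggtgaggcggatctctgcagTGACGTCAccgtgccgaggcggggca
Chgb: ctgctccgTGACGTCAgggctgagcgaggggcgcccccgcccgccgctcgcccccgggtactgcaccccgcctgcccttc
In these promoters the element begins 59, 26 and 72 bases before the start. Other members of the 21 include Ldha, Mapk10, Klc1, Gpm6b and Prkar1a, the last a regulatory subunit of the kinase that cyclic AMP activates.

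Markers of each resident cell class of the cortex were seen above the background threshold. All 17 measured pan-neuronal markers, 11 excitatory, 16 interneuron, 14 astrocyte, 14 oligodendrocyte, 6 oligodendrocyte precursor, 14 microglial, 13 endothelial and 11 mural markers were above background, where 71.0% of all genes were. At the 99th percentile of the receptor genes, 35.7, mural markers numbered 7 of 11, where 11226 of all 18193 genes were above it. Nrgn, a calmodulin-binding protein of dendritic spines, read 3885, 4646 and 3193, and Camk2a, the main postsynaptic kinase of excitatory neurons, read 3531, 1940.0 and 2748. In interneurons, Gad1, which makes GABA, read 1915, 2917 and 2603, highest on replicate 2. The subtype marker Sst read 2025, 1353 and 2231, lowest on replicate 2, while Vip read 1129.7, 1262 and 1096 and Pvalb read 672, 895 and 478, both highest there. In astrocytes, the glutamate transporter Slc1a2 read 4322, 4962 and 5861 and the glutamine synthetase Glul read 3481, 4435 and 4332. The water channel Aqp4 read 970.0, 972 and 958 and hardly differed between arrays. The median SD of the astrocyte list was 0.12 log2 units with no member over 0.5, and 0.053 after quantile normalization. Mobp, a protein of compact myelin, read 3512, 3686 and 3323, and Cnp, an enzyme of oligodendrocytes, read 3948, 3869 and 4102, both within a narrow range. Pdgfra, the growth factor receptor of their precursors, read 489, 337 and 625. Microglial genes included Csf1r, the receptor on which these cells depend for survival, at 1750.1, 1540.2 and 1497, and the complement component C1qa at 448, 430.1 and 371. In vessels, Cldn5, a tight junction protein of the blood-brain barrier, read 365, 205 and 304, and Rgs5, a marker of pericytes, read 749, 1069 and 1108.

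Markers of cells that blood would bring were mostly not above background. Of 12 measured leukocyte markers 3 were above it, where 71.0% of all genes were. The 3 were Ptprc, Lyz2 and Cd52, which microglia and other myeloid cells can also express. The T cell genes Cd3e, Cd3g, Cd4 and Cd8a, the B cell genes Cd79a and Ms4a1, the neutrophil genes S100a8 and S100a9 and the cytotoxic cell gene Nkg7 were not above background. Among erythrocyte genes Alas2, the first enzyme of haem synthesis in these cells, read 58.1, 67.1 and 65.2 and Hbb-b2 read 27.4, 19.8 and 40.2, while Hba-a1, Hba-a2 and Slc4a1 were not above background. Only the probe sets with 1 gene symbol were read here, and globin genes have near-identical copies, so their signal is uncertain.

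Layer markers of the cortex were above background for 12 of 12 upper layer and 14 of 14 deep layer genes, where 71.0% of all genes were. Cux2, a transcription factor of the upper layers, read 591, 846 and 472, and Lamp5, a membrane protein of upper layer neurons and some interneurons, read 1795, 2187 and 1276. In the deep layers, Fezf2, which specifies neurons projecting below the cortex, read 272, 267 and 269, and Pcp4, a calmodulin regulator of layer 5 and 6 neurons, read 3141, 3378 and 3555. Fezf2 read nearly the same on each array.

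For other brain regions, most listed markers of the olfactory bulb, hippocampus, thalamus and hypothalamus, and striatum were above background, and most of the cerebellum were not. Each count at the background threshold stands beside the 71.0% of all genes. Those above background include Fibcd1, Hcrt, Oxt and Drd2, given below, so the counts alone do not tell these regions from cortex. For the cerebellum 4 of 10 measured markers were above background. Gabra6, the GABA receptor subunit of granule cells, Pcp2 of Purkinje cells, Cbln3, Zic2, En2 and Barhl1 were not, while Calb1, which cortical neurons also express, read 2319, 1958 and 2600.2. For the olfactory bulb 8 of 10 were above background, without Eomes and Tbx21, factors of its projection neurons. Of 11 hippocampal markers 7 were above background, and Prox1, the factor of dentate granule cells, Lct, Dsp and Iyd were not. Fibcd1, a marker of hippocampal field CA1, read 59.3, 23.5 and 162. For the thalamus and hypothalamus 10 of 12 were above background, without Gal and Gbx2. At the 99th percentile of the receptor genes 5 of 12 were above it, where 11226 of all 18193 genes were. Signals were low for the peptide genes Hcrt at 23.9, 30.1 and 32.1 and Oxt at 109, 92.1 and 67.6. Of 12 striatal markers 11 were above background, all but Isl1. Ppp1r1b, a phosphatase inhibitor of dopamine-responsive neurons, read 259, 217 and 312, and the dopamine receptor Drd2 read 29.2, 12.1 and 47.8. Lists of other organs were above background for 3 of 13 liver, 5 of 13 muscle, 1 of 10 testis and 4 of 11 skin and gut genes. The liver count includes Ttr, which the choroid plexus also makes.

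**Figure D3:**
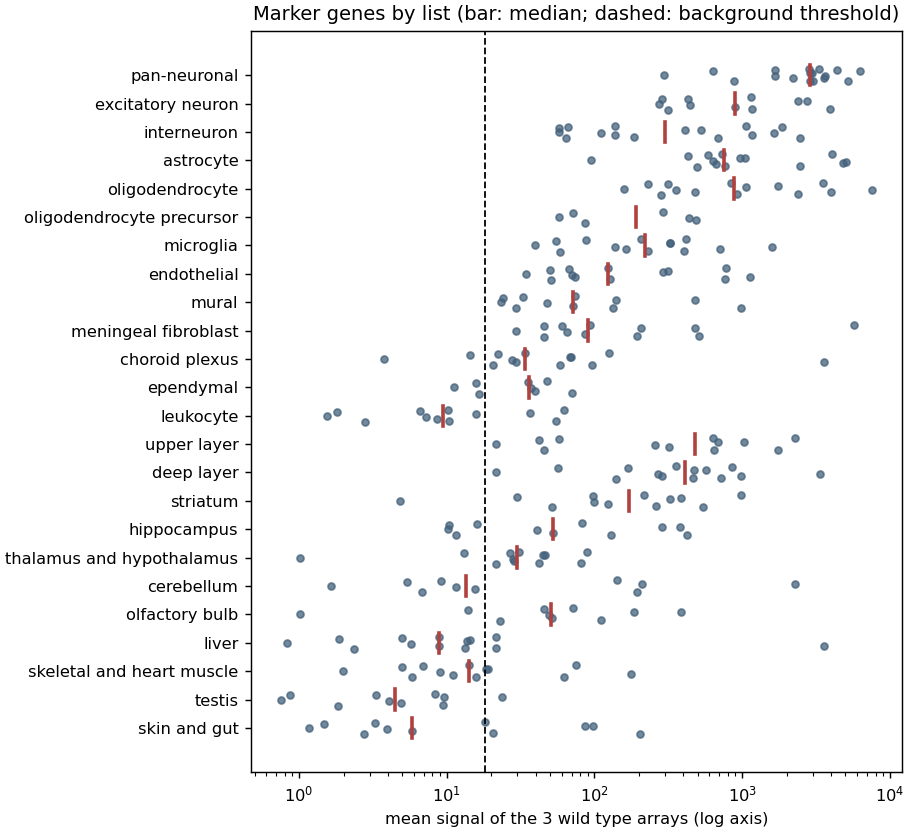
Mean signal of the 3 wild type arrays on a log axis (x axis) for each measured marker gene (points), by list (y axis), with a red bar at the list's median and a dashed line at the background threshold of 18.2. All markers of the resident neural and glial classes lie right of the line, and most leukocyte, liver, muscle, testis, and skin and gut genes lie left of it.

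Genes of synaptic transmission were read against the 71.0% of all genes above background. All 19 glutamate receptor, 10 GABA receptor, 18 presynaptic and 16 voltage-gated channel genes measured were above background, and 13 of 14 postsynaptic genes, where the scaffold gene Shank1 was not. Gria2, the subunit that keeps most AMPA receptors impermeable to calcium, read 2248, 2307 and 3149, and Grin2b, an NMDA receptor subunit, read 899.9, 792 and 979. Within the glutamate and GABA receptor lists the widest spread was that of the AMPA subunit Gria1, at 1345, 549 and 1651, lowest on replicate 2 (SD of 0.83 log2 units, n = 3). Its other probe set above background was also lowest there, at 818, 681 and 1144. Gabrb1, a subunit of the GABA-A receptor, read 1447, 1106 and 1859.7, and the metabotropic Gabbr1 read 2555, 2532 and 3116. The median SD of the presynaptic genes was 0.15 log2 units, or 0.099 without replicate 3, and none was over 0.5. Cplx1, a clamp of vesicle fusion, read 3432, 3374 and 3331, and Syp, a protein of synaptic vesicles, read 2246, 2075 and 2267.

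Of 18 measured neuropeptide and granule genes all were above background, where 71.0% of all genes were, and 3 had an SD over 0.5, where 4.21% of genes above background did. Cck, a peptide of interneurons and some projection neurons, read 2300.2, 2578 and 2324, and Npy read 1823, 1548 and 1523. Penk, the precursor of enkephalins, read 724, 201 and 703, lowest on replicate 2. Trh, the precursor of thyrotropin-releasing hormone, read 41.0, 2.09 and 41.1, and was at background level on replicate 2. Crh, the precursor of corticotropin-releasing hormone, read 270.0, 356 and 130.1, highest on replicate 2 and lowest on replicate 3.

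The spread between arrays was taken as the SD over the 3 arrays of log2(signal + 16), with signals under 1 set to 1. The added 16 damps the spread of dim genes. The median SD of genes above background was 0.17, and 544 of 12921 genes (4.21%) had an SD over 0.5 and are called variable here. With replicate 1, 2 or 3 left out the count was 788, 467 or 567. Variable genes had a median ratio of 3.04 between their highest and lowest array. Spread was narrower at higher signal, from a median SD of 0.22 in the 3231 dimmest genes, where 7.99% were variable, to 0.15 in the 3230 brightest, where 1.55% (50 genes) were. Just inside the threshold lay B930059L03Rik and Rhpn1 with SDs of 0.5008 and 0.5003, and just outside it Cdc42ep1 and Ankrd9 with 0.4999 and 0.4996. Replicate 2 was the array farthest from the other two for 276 of the 544 genes (50.7%), above them for 110 and below for 166. Replicate 3 was farthest for 156 genes and replicate 1 for 112.

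**Figure D4:**
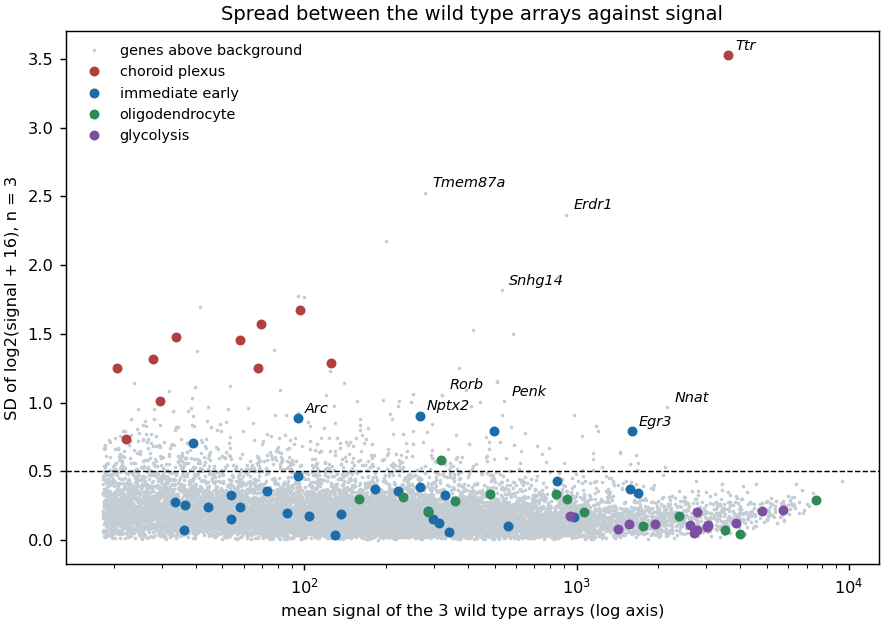
SD between the 3 wild type arrays on the log2(signal + 16) scale (y axis) against mean signal on a log axis (x axis) for each gene above background (grey), with members of 4 gene lists in colour and the 0.5 threshold dashed. The 11 choroid plexus genes shown lie above the line with Ttr at the top. Of these, 7 passed the background threshold only through replicate 3, which fixes their spread in part. The glycolytic genes lie below the line and 5 immediate early genes above it, where 4.21% of all genes above background lie.

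The widest spread was that of the choroid plexus gene Ttr, and most of the summed signal of the choroid plexus list came from replicate 3. Next in spread were Tmem87a and Erdr1, which are not on that list, with SDs of 2.53 and 2.37 log2 units. Ttr, which encodes transthyretin, the thyroid hormone carrier that the choroid plexus secretes, read 71.0, 375 and 10347 (SD of 3.53 log2 units, n = 3). Another of its probe sets read 69.3, 256 and 9233, the next 30.5, 160.0 and 9106 and the last 52.2, 228 and 8759, all in the same order of arrays. Ttr is thus among the bright genes on replicate 3 and far below them on replicate 1. Folr1, a folate receptor of the choroid epithelium, read 30.4, 12.8 and 245, and Clic6, a chloride channel protein, read 12.6, 15.2 and 180.5. Kl, which encodes the fibroblast growth factor co-receptor klotho, read 13.2, 12.5 and 149, and the potassium channel gene Kcnj13 read 46.0, 48.4 and 281. Cldn2, a tight junction protein of leaky epithelia, read 1.58, 4.61 and 95.3, and Otx2, a transcription factor that maintains the choroid plexus, read 0.604, 0.647 and 60.4. Both were at background level on replicates 1 and 2. Kcne2, a potassium channel subunit, read 6.18, 0.454 and 76.8, and Sostdc1, a secreted antagonist of bone morphogenetic proteins, read 40.7, 13.7 and 149. The water channel Aqp1 read 9.97, 8.83 and 69.7 and the coagulation factor F5 read 14.2, 6.88 and 45.6, also highest on replicate 3.

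Over the list, 13 of 15 genes were measured, and 11 had a mean above background, each of them highest on replicate 3 and each with an SD over 0.5. Of these, 7 passed the threshold only through replicate 3, so that they had to differ, and nothing is read from the count beside the 4.21% of all genes. Read against the background of each array alone, 4 of the 13 were above it on replicate 1, 2 on replicate 2 and 12 on replicate 3. That background was 26.6, 19.6 and 16.7 signal units, so it was lowest on replicate 3. Of all 18193 genes, 12144, 12527 and 12992 were above it. The summed signal of the 13 genes was 255, 505 and 11739, most of it from Ttr. The median deviation of the 11 genes from the mean of the 3 arrays was -0.72, -0.84 and 1.50 log2 units, and with quantile normalization the last was 1.54, which the choice of the 7 fixes in part. For the other 4, Ttr, Folr1, Kcnj13 and Sostdc1, whose mean over replicates 1 and 2 alone was above background, it was -0.69, -0.99 and 1.69, and all 4 were highest on replicate 3. Slc4a5, a bicarbonate transporter, read 2.07, 3.84 and 37.2 and was not above background by its mean, nor was Slc5a7, a choline transporter. The part of choroid plexus RNA in other genes of replicate 3 was not tested. The rule for the 25 widest spreads named 9 genes of this list, and also Ecrg4, a secreted peptide gene of choroid plexus and ependyma, at 31.9, 20.1 and 545, and Htr2c, the serotonin receptor gene that the choroid plexus expresses strongly and cortical neurons express too, at 443, 173 and 921. Htr2c was above background on all 3 arrays and its other probe set read 72.5, 24.4 and 126, highest on replicate 3 too. Calml4, which encodes a calmodulin-like protein, read 7.22, 7.48 and 106.

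For the 9 choroid plexus genes matched in the promoter table, 2 held TATAAA at the stated distance, Cldn2 and Kcnj13. The 9 include Slc4a5 and Slc5a7, which were not above background. Of 25 matched immediate early genes 2 held it, Fos among them. Of all matched genes, 1.55% of those above background and 6.1% of those not above it held the motif. Nothing is read from counts this small. The 80 bases before the start of Cldn2, Kcnj13 and Fos are shown in that order, with TATAAA in capitals. They are chrX:139800728-139800807 on the plus strand, chr1:87394730-87394809 on the minus strand and chr12:85473810-85473889 on the plus strand, and the motif begins 35, 29 and 33 bases before the start.
Cldn2: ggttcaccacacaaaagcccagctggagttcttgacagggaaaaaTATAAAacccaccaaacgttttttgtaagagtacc
Kcnj13: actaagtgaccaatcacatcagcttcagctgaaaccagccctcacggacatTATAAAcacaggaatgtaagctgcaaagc
Fos: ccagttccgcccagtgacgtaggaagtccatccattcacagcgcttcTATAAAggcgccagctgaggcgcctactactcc
Fos, a transcription factor that neuronal activity induces within minutes, read 163, 276 and 221, and the choroid plexus genes are those given above.

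Genes of other structures around the ventricle and at the surface also differed between arrays, in other patterns. Of 8 measured ependymal genes 5 were above background, where 71.0% of all genes were. Each of the 5 was lowest on replicate 2, where 5133 of 12921 genes were, with a median deviation of 0.30, -0.77 and 0.31. Rsph1, a protein of the radial spokes of motile cilia, read 41.9, 4.06 and 73.5, and Ak7, an adenylate kinase of cilia, read 58.8, 12.9 and 39.7. Foxj1, the master factor of motile cilia, Ccdc153 and Tmem212 were not above background. Meningeal and fibroblast genes were highest on replicate 3 for 11 of 12, where 4420 of 12921 genes were, with a median deviation of -0.08, -0.23 and 0.30. Dcn, a proteoglycan of connective tissue, read 451, 173 and 907, and Ptgds, the prostaglandin D synthase of meninges and choroid plexus, read 4767, 5552 and 6747. Ogn, another proteoglycan, read 55.0, 108 and 117, and the collagen gene Col1a2 read 192, 153 and 235. Endothelial genes were highest on replicate 3 for 9 of 13, with a median deviation there of 0.15 against 0.01 over all genes. Where a gene is expressed by several of these structures and by the cortex, the part of each in its signal was not tested.

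**Figure D5:**
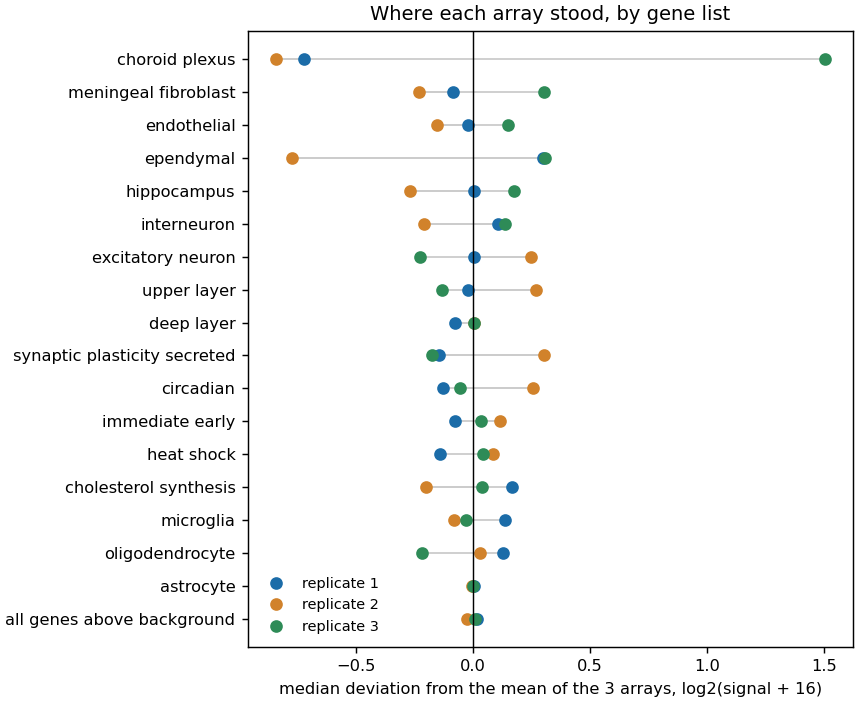
Median deviation of each list's genes above background from their mean over the 3 wild type arrays, in units of log2(signal + 16) (x axis), by list (y axis), with a point for each array. The choroid plexus list stands at 1.50 on replicate 3, fixed in part because 7 of its 11 genes passed the background threshold only through that array. The ependymal list stands at -0.77 on replicate 2, fixed in part because Rsph1, Mia and Ak7 passed that threshold through the other arrays. All genes above background stand at 0.02, -0.02 and 0.01.

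Some neuronal lists leaned to replicate 2 and others did not. Median deviations on replicate 2 were 0.25 for the excitatory list, 0.27 for the upper layer list and 0.30 for the list of secreted plasticity factors, against -0.02 over all genes above background. They were -0.03 for the pan-neuronal list, 0.0030 for the presynaptic list and -0.0020 for the postsynaptic list. The first 3 lists were highest on replicate 2 for 7 of 11, 8 of 12 and 10 of 12 genes, where 3782 of 12921 genes were. Rorb, a nuclear receptor gene of layer 4, read 163, 631 and 169, highest on replicate 2. Another Rorb probe set read 124, 216 and 133 and the third 47.9, 94.7 and 54.2, with the same array highest. Slc17a7, the vesicular glutamate transporter of cortical excitatory neurons, read 870.4, 1775 and 789. The upper layer transcription factor Pou3f2 read 57.6, 86.8 and 29.4 and Rspo1, a secreted Wnt agonist, read 51.8, 63.0 and 20.9. Camk2a ran the other way and was lowest on replicate 2, so the excitatory list did not move as a whole. Deep layer genes had a median deviation of -0.08 on replicate 1 and close to 0 on the others, although Crym, a thyroid hormone-binding protein, read 635, 416 and 1099.9.

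Of the plasticity factors, Nptx2, a secreted protein that clusters AMPA receptors, read 166, 486 and 144 and Bdnf, a neurotrophin, read 214, 358 and 224. Inhba, an activin subunit, read 68.4, 159 and 48.8, highest on the same array. The synaptic organiser Cbln2 read 236, 351 and 123, and its relative Cbln4 read 159.5, 324 and 162. All 5 were highest on replicate 2. On the same array 11 of 16 interneuron genes were lowest, where 5133 of 12921 genes were, with a median deviation of -0.21, although Gad1 and Pvalb were highest there. Hippocampal genes had a median deviation of -0.27 on replicate 2. Cholesterol synthesis genes were lowest there for 15 of 18, at -0.20, and highest on replicate 1 for 12 of 18, where 4719 of all genes were. Dhcr7, which makes cholesterol from its last precursor, read 331, 155 and 186, and Sc5d, an enzyme just before it, went against its list at 290.0, 537 and 285.

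The immediate early genes, which neurons transcribe rapidly after activity, were above background for all measured but Sik1, 31 of 32, where 71.0% of all genes were. Their median SD of 0.27 log2 units lay above the 0.17 of all genes, and 5 of the 31 had an SD over 0.5, where 4.21% of all genes did. Egr1, a zinc finger factor of this class, read 1247, 2054 and 1429.6, and its relative Egr3 read 1189, 2669.6 and 924. Both were highest on replicate 2. The dim other probe set of Egr3 read 39.2, 44.7 and 37.1. Ier5 read 433, 801 and 256, with the same array highest. Of its other probe sets 1 read 118, 109 and 47.9 and 1 read 55.2, 135 and 33.7, so that they do not all give that order. Arc, which acts in the dendritic cytoskeleton and in receptor uptake, read 33.2, 114 and 136, and Egr2 read 13.1, 50.2 and 54.0, both lowest on replicate 1. Junb read 89.1, 62.1 and 133 and Nr4a2, an orphan nuclear receptor, read 719, 664 and 1159, both highest on replicate 3. The members therefore did not share an order of arrays, and the list's median deviations were -0.08, 0.12 and 0.04. Per1, Jun and Ccn1 were steady, Per1 at 134, 127 and 128.

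Of 16 measured circadian genes 15 were above background, where 71.0% of all genes were. Their median SD was 0.31 log2 units and their median deviation was 0.26 on replicate 2. Per2, a repressor of the clock, read 78.8, 162 and 83.4, and Nr1d2, a nuclear receptor of the same system, read 849, 1533 and 1089. Npas2, which can stand in for Clock, read 179.7, 307 and 138. All of these were highest on replicate 2. By contrast Dbp, an output factor with a strong daily rhythm in many tissues, read 1075, 1039 and 942 and Arntl, the partner of Clock, read 274, 241 and 186. The labels give no time of day for any array. Heat shock genes were lowest on replicate 1 for 16 of 19, where 3778 of 12921 genes were, with a median deviation there of -0.14, and for 15 of 19 after quantile normalization. Hspa5, a chaperone of the endoplasmic reticulum, read 1748, 2709.6 and 2108 and the inducible Hspa1b read 61.6, 132 and 88.6.

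Glial lists differed from each other. Microglial genes were highest on replicate 1 for 11 of 14, where 4719 of 12921 genes were, with a median deviation there of 0.14 and no gene over 0.5. Oligodendrocyte genes were lowest on replicate 3 for 11 of 14, where 4010 of all genes were, with a median deviation there of -0.22 and a median SD of 0.29. Mag, an adhesion protein of the myelin sheath, read 1034, 853 and 645, and Mog, on its outer surface, read 605, 461 and 374. Mbp, which is bright, was highest on replicate 3 by its brightest probe set and lowest there by another at 6469.8, 4658 and 4376. The list's deviation on replicate 3 was -0.25 after quantile normalization. The pan-neuronal, presynaptic, glycolytic and cytoskeletal lists leaned to replicate 3 as deposited, and after quantile normalization their median deviations there were -0.03, -0.03, -0.01 and 0.00442.

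Some wide spreads rested on single genes that no list contained. Tmem87a, a membrane protein of the Golgi, read 4.69, 408 and 422, near background on replicate 1 alone. Erdr1, a gene of the region that the sex chromosomes share, read 1014, 63.4 and 1666, lowest on replicate 2, while the nearby Mid1, which encodes a microtubule-bound ubiquitin ligase, read 263, 15.9 and 19.4, highest on replicate 1. Sstr1, a somatostatin receptor gene, read 163, 2.74 and 118, and Pam, an enzyme that amidates peptides, read 952, 122 and 673, both lowest on replicate 2. Zfp874a, a zinc finger gene, read 2.94, 121 and 0.388. Agt, the precursor of angiotensin that astrocytes make, read 144, 27.5 and 200.1, and Cap1, an actin regulator, read 131, 214 and 767 with its other probe set at 119.8, 175 and 523. Defb11, a defensin gene, read 7.28, 1.59 and 62.3. Tmem87a, Sstr1, Pam, Zfp874a, Agt and Defb11 had 1 probe set each, so no other reading of them was available. Erdr1 and Mid1 are given only by the brightest of their 2 and 3 probe sets. E2f5, a transcription factor of cell cycle and cilia, read 251, 129 and 39.7, and Sema7a, a membrane-bound guidance protein, read 567, 806 and 226, both lowest on replicate 3.

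A gene's other probe sets were not used to call it variable, and they gave the same direction more often at wide spreads. Of 6337 genes with another probe set above background, 197 were variable by their brightest probe set, and in 166 of them (84.3%) the other probe set lay on the same side on the array that was farthest. For genes with an SD up to 0.1 that share was 54%, and between 0.2 and 0.5 it was 72.8%. Of these other probe sets 61 of 197 (31%) had an SD over 0.5 themselves, against 4.75% over all 6337. In the genes that follow the other probe set did not give the same picture. Gprc5b, an orphan receptor gene, read 624, 80.5 and 547 by its brightest probe set and 321, 359 and 279 by the other. Snhg14, a long noncoding host transcript of small nucleolar RNAs, read 107, 1309 and 180.1 by its brightest and 72.5, 70.4 and 126 by the next. Xaf1 read 119, 8.35 and 105 and, by its other probe set, 13.5, 63.7 and 8.04, in the opposite order. Tmem25 read 117, 495 and 138 against 183, 178 and 164. Probe sets of a gene can target different transcript ends or splice forms, and which of these apply was not tested.

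At the other end lay genes with almost the same signal on every array. Among the 3230 brightest genes the lowest spread was that of Ttc33, at 498, 496 and 495. Tef, a clock-controlled transcription factor, read 1155, 1147 and 1150.4, and Camsap1, a protein that binds the minus ends of microtubules, read 452, 455 and 453. Arpc5l, a subunit of the actin-branching Arp2/3 complex, read 1127, 1138 and 1130.0, and Marchf5, a ubiquitin ligase of mitochondria, read 832, 829 and 822. Uap1, Pcbp4, Cep20, Ankrd11 and Pom121 made up the 10. They are the narrowest of many genes over 3 arrays, so the values describe these arrays only.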

How the data were processed

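The 3 wild type columns of the deposited table were used. These are linear intensity signals per probe set that the authors had already scaled. The software and genome build are not given in the sources used here. Of 45037 probe sets, besides 64 controls, the platform annotation gave 1 symbol for 34945, several for 932 and none for 9160. Symbols were updated by gene number in RefSeq's GRCm38.p6 gene table, which was used only for names and gene order. Signals under 1 (4.71% of values) were set to 1 and log2(signal + 16) was taken. Named genes are the 30 brightest, the 25 widest spreads and the 10 narrowest spreads. Others were drawn from the 5 largest deviations up and down per array and from 42 lists. From each list the 4 brightest, the variable and the undetected defining members were candidates. Not all genes of these last groups are named, so those given are a selection. Further list members were named for their roles after their values were seen. The members and lists were chosen with earlier results of these data known. Alternatives were other pseudocounts, quantile normalization, other background levels, probe set averages and each replicate left out. Precision is limited by there being 3 arrays. The spread calculation was tested on simulated data. Python 3.11.15, numpy 2.4.6, pandas 2.3.3 and matplotlib 3.10.9 were used.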

Additional observations from a re-analysis of the deposited data

How the results depend on the processing

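The number of variable genes depended most on the settings. It was 544, and 1142 with a pseudocount of 1, 139 with 64, 353 when a gene's probe sets were averaged, 42 at an SD over 1, 826 without a filter on dim genes and 128 among genes brighter than the median. The median SD of the choroid plexus list, 1.32, was 2.09 and 0.75 with pseudocounts of 1 and 64, and 0.42 to 1.73 with 1 replicate left out, lowest without replicate 3. At the 99th percentile of the receptor genes, 35.7, its members above background numbered 6 in place of 11. All genes above that level numbered 11226 of 18193. The median deviation of the choroid plexus list on replicate 3 ran from 0.83 to 2.38. The median SD of the immediate early list, 0.27, was 0.17 to 0.24 with 1 replicate left out, lowest without replicate 2, and 0.34 with a pseudocount of 1. Genes above background numbered 11226 to 13065 under all alternatives run. The alternatives for deviations were chosen after seeing the data, and they were run for selected lists and arrays. None of these selected deviations changed sign. The cytoskeletal deviation on replicate 3, 0.20, was 0.00442 after quantile normalization. The presynaptic one on replicate 1, -0.13, was -0.0050 with probe set means. Outside that selection signs did change. On replicate 3, the pan-neuronal, presynaptic and glycolytic deviations of 0.10, 0.09 and 0.12 were -0.03, -0.03 and -0.01 after quantile normalization. No paired analysis was possible because only 1 group was described and no result comes from a test.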

Other observations

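Among the 50 variable genes of the 3230 brightest, a few stand out that no list held, and they were chosen after their values were seen. Hpcal1, a neuronal calcium sensor, read 1333, 582 and 1680.4 and Sparc, a matrix protein of glia and vessels, read 1710.2, 812 and 1811, both lowest on replicate 2. Lypd1, a regulator of nicotinic receptors, read 551, 228 and 617, again lowest on replicate 2. Edil3, a matrix protein, read 260.2, 842 and 227 and Pdp1, a phosphatase that activates pyruvate dehydrogenase, read 727, 1711 and 487, both highest on replicate 2.

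Genes that answer glucocorticoids and interferon were read against the median SD of 0.17 log2 units over all genes above background. Of 17 glucocorticoid-responsive genes 15 were above background, where 71.0% of all genes were, with a median SD of 0.19 log2 units and 2 of them over 0.5, where 4.21% of genes above background were. Klf9, a transcription factor gene of this list, read 4095, 4278 and 4059.8 and Fkbp5, a co-chaperone of the receptor, read 216, 164 and 196. Of 15 interferon-responsive genes 12 were above background, likewise beside 71.0%, with a median SD of 0.21 log2 units and 0 of them over 0.5. B2m, the light chain of class I histocompatibility molecules, read 1041, 1140.3 and 741.

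Gene order was read for the 12862 genes above background that the RefSeq table placed, 540 of them variable. Among 12840 pairs of neighbours in this order 31 were both variable, and 11 of these pairs deviated to the same side on all 3 arrays. Examples are the zinc finger genes Zfp994 and Zfp944 with Zfp758 beside them, and the potassium channel genes Kcnj9 and Kcnj10, with Kcnj9 at 958, 301 and 459 and Kcnj10 at 525, 253 and 315. Among all genes above background 4.21% were variable. The X chromosome had the highest share, with 29 variable genes of 422 (6.87%). Chromosome 5 had the lowest, with 14 of 809 (1.73%), apart from the Y chromosome and the mitochondrial genome, which had 0 of 5 and 0 of 1. How many pairs the share of variable genes alone would give was not worked out, so nothing is read from the 31 or the 11. These counts are descriptions of 3 arrays, and were not tested.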
